A study of Mus musculus with 24 samples.

Results

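The response of BV-2 microglial cells to LPS in the presence of Δ9-tetrahydrocannabinol (THC) was measured on 8 of the 24 arrays of the series, chosen by their treatment labels. These were 4 arrays of cells given THC and LPS (THC+LPS) and 4 arrays of cells given THC alone (THC), and all 24611 probes of the Illumina MouseRef-8 array were used. BV-2 cells are mouse microglia, brain macrophages that were immortalized for culture, and THC is the main psychoactive cannabinoid of Cannabis sativa. THC+LPS cells were kept in 10 µM THC for 2 h, after which LPS was added at 100 ng/ml for another 4 h, and THC cells were kept in 10 µM THC for 6 h. Both groups carry THC, so by their labels they differ in the addition of LPS alone. Further groups were LPS alone for 4 h (6 arrays), untreated control cells (Cntr, 6 arrays), CBD+LPS (2 arrays) and CBD alone (2 arrays), in which the isomeric cannabinoid cannabidiol (CBD) was used at the same dose and times as THC. The question was which transcripts LPS moves in cells that already hold THC, and whether that response differs from the one in cells without a cannabinoid or with CBD. The study describes replicate experiments on independent microarrays, but its replicate numbers differ from the labels. Nothing in the sources used here ties each array to a culture of its own. The p-values thus rest on a spread between samples that may be technical, and precision is limited by how few arrays there are. A single immortalized line was used.

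LPS, a component of the outer membrane of Gram-negative bacteria, is handed by CD14 to Toll-like receptor 4 (TLR4) on macrophages and microglia. One arm of TLR4 signalling runs through MyD88 to the transcription factor NF-κB and to MAP kinases, which act on cytokine and chemokine genes. The other runs through TRIF to interferon regulatory factors and interferon-β, which then acts through JAK kinases and STAT factors on interferon-stimulated genes.

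LPS upregulated 594 of 15161 genes in THC-treated cells (3.92%) and downregulated 836 (5.51%), 9.43% in all. The largest rises were those of the cytokine and chemokine genes Il1b, Cxcl2, Csf3 and Cxcl10, and the largest falls those of the oxysterol receptor gene Gpr183 and of Klhl6, Lyl1, Cytip and Cxcr4. Rises were larger than falls, since 222 genes rose and 89 fell by 2-fold or more. Calls were made at a Benjamini-Hochberg adjusted p under 0.05 in moderated tests of limma over all probes, of which 860 were higher (3.49%) and 1074 lower (4.36%). Each gene is given by its brightest probe. Of 37 further probes of the genes named below, 19 gave the same call, 14 did not pass and 4, of Gcnt1, Ptgs2, Tgfbr2 and Nfe2l2, had the opposite sign with values between -0.025 and 0.021. Levels are normalized log2 intensities with a floor of about 7.54, so a log2 fold change understates the change of a gene with a low signal, and the median change over all genes was -0.0037. Among the 7914 genes detected on at least 4 arrays, 580 rose (7.33%) and 817 fell (10.3%). Counts per gene list below are to be read beside these shares and those over all genes. The number of falls depends on the scaling, since with each array scaled to its median in place of quantile normalization 793 probes were called higher and 84 lower.

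One THC array stood apart from the other 3, and some of the results that rest on it are given with and without it. Along an axis set by the 342 probes that LPS moved most in cells without a cannabinoid, where the mean control array lies at 0 and the mean LPS array at 1, the THC+LPS arrays lay at 0.93, 1.03, 0.94 and 1.09 and the THC arrays at 0.27, -0.0098, 0.10 and 0.0081. LPS arrays spanned 0.934 to 1.13 and control arrays -0.0568 to 0.119, so THC replicate 1, at 0.27, lay above every control array and below every array with LPS. Without it 808 probes were called higher and 1069 lower, of which 743 and 907 were among those called with it. Per array, 40.6 to 44.8% of the probes were detected (detection p under 0.05). All 11 macrophage and microglia markers measured (Itgam, Tyrobp, Trem2 and Laptm5 among them) were detected, 10 of them on all 8 arrays, and 1 of the 11, Spi1, was called higher. Of 7 astrocyte, 7 neuron, 6 oligodendrocyte, 7 fibroblast, 5 endothelial and 5 T cell markers, at most 1 per list was detected and none was called, with Gfap, Snap25, Mbp, Col1a1, Pecam1 and Cd3e not detected. Flt1, which macrophages also express, was the endothelial marker detected on all 8 arrays. RNA was taken from whole cultures, in which fewer cells of a state and less RNA per cell cannot be told apart.

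**Figure D1:**
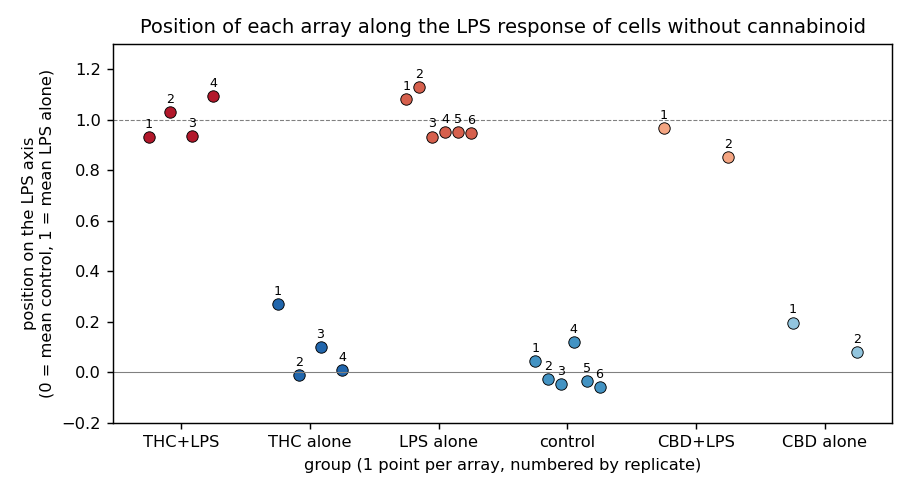
Position of each array on the axis from the mean control array (0) to the mean LPS array (1), over 342 probes chosen from LPS and control arrays alone, with 1 numbered point per array and the groups side by side. The 4 THC+LPS arrays lie between 0.93 and 1.09 and the THC arrays at or below 0.10, other than THC replicate 1 at 0.27.

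Genes of proinflammatory cytokines were called in 1 direction only, and those of the interleukin-1 and tumor necrosis factor axis were among the largest changes on the array. In this list 10 of 18 measured members rose and 0 fell, with a median log2 fold change of 1.51, against -0.0037 over all genes. Il1b, which encodes the secreted pyrogen interleukin-1β, had values of 13.25, 14.13, 13.23 and 14.59 in THC+LPS arrays, against 8.94, 7.78, 7.68 and 7.69 in THC arrays. The groups lay far apart, although THC replicate 1 was the highest THC array and only 2 of the 4 THC arrays were above the detection limit, and the log2 fold change was 5.78 (SE 0.45, adjusted p = 8.54e-08). Tnf, the gene of tumor necrosis factor α, measured 14.56, 14.86, 14.58 and 14.77 in THC+LPS arrays, against 11.73, 9.88, 10.23 and 9.88 in THC arrays, a log2 fold change of 4.27 (SE 0.32, adjusted p = 5.30e-08). Csf3 encodes the granulocyte growth factor G-CSF and was near the floor in 3 THC arrays, with 13.19, 13.43, 13.04 and 13.46 in THC+LPS arrays, against 7.88, 7.66, 7.59 and 7.6 in THC arrays. Its log2 fold change was 5.6 (SE 0.26, adjusted p = 4.92e-11). Il1a, the gene of interleukin-1α, measured 9.81, 11.5, 9.57 and 12.14 in THC+LPS arrays, against 7.87, 7.68, 7.66 and 7.6 in THC arrays. Replicates 2 and 4 of THC+LPS were the higher ones, all 4 lay above every THC array, and the log2 fold change was 3.05 (SE 0.61, adjusted p = 0.00238). Il6, encoding the cytokine that drives the acute phase response, was not detected on any THC array and was at least 3.62-fold higher with LPS, at 8.91, 9.93, 8.62 and 10.94 in THC+LPS arrays, against 7.63, 7.64, 7.65 and 7.62 in THC arrays (adjusted p = 0.00286). Its call was lost when only the THC+LPS and THC arrays were fitted (1.97, adjusted p = 0.0606). Of the 8 cytokine genes that did not pass, Csf1 had the largest value, 0.78 (adjusted p = 0.437), and Il10, Il1rn, Csf2, Lif and Il12a lay between -0.0136 and 0.01. Only 13 of the 18 members were detected on any of the 8 arrays, so values this close to 0 can be those of undetected genes.

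Chemokine genes were called less evenly, since a few members showed large rises and most did not pass the test. Among CC chemokines 5 of 16 measured members rose and 0 fell, with a median log2 fold change of 0.14. All 5 were among the 10 members detected on at least 4 arrays, and the median over the 12 detected on any of the 8 arrays was 0.53. Among CXC chemokines 3 of 11 measured members rose and 0 fell, with a median log2 fold change of 0.018. All 3 were among the 6 detected members, whose median was 0.43. What made the calls uneven was not tested. Cxcl2, which encodes a ligand of the neutrophil receptor CXCR2, had values of 13.12, 13.67, 13.26 and 13.96 in THC+LPS arrays, against 8.44, 7.73, 7.65 and 7.65 in THC arrays, a log2 fold change of 5.63 (SE 0.18, adjusted p = 1.75e-13), with 1 of 4 THC arrays above the detection limit. Cxcl10, an interferon-inducible ligand of CXCR3, measured 12.32, 13.33, 12.79 and 13.88 in THC+LPS arrays, against 7.99, 7.87, 8.11 and 7.87 in THC arrays, a log2 fold change of 5.12 (SE 0.31, adjusted p = 4.46e-09). For both genes every THC+LPS array lay more than 4 log2 units above every THC array. The T cell attractant gene Ccl5 rose by 4.25 (SE 0.35, adjusted p = 1.65e-07), with 13.95, 14.16, 14.02 and 14.49 in THC+LPS arrays, against 10.62, 9.37, 10.27 and 9.36 in THC arrays. Genes of the monocyte attractants rose less, namely Ccl7 by 2.8, Ccl12 by 2.51 and Ccl2 by 2.26. Cxcl16 rose by 0.35 (SE 0.079, adjusted p = 0.00658) and did not pass with median scaling (0.47, adjusted p = 0.0565). Ccl3 and Ccl4, which encode macrophage inflammatory proteins and were bright in both groups, had log2 fold changes of 0.26 (adjusted p = 0.482) and 0.30 (adjusted p = 0.720). Of 10 chemokine receptor genes 1 rose and 1 fell. Ccrl2, an atypical receptor that binds chemerin, rose by 4.86 (SE 0.39, adjusted p = 1.04e-07), with 12.35, 13.34, 12.34 and 13.54 in THC+LPS arrays, against 8.48, 7.85, 7.97 and 7.84 in THC arrays.

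The start regions of 3 of these strongly induced genes are shown for the letters that factors of both TLR4 arms are known to bind. Windows of 250 bases before the start, taken from RefSeq on the mouse build GRCm38.p6, were searched on both strands for GGGANNTTC (kappaB), GAAANNGAA (the core of the interferon-stimulated response element, ISRE), TGANTCA (AP-1) and TGACGTCA (CRE). These occur in 3.7%, 8.18%, 7.82% and 1.77% of the windows of 27025 genes. The stretches below run 5′ to 3′ on the gene's strand, and capitals mark matches to any of the 4 motifs. That of Cxcl10 is at chr5:92348950-92349109 on the minus strand and holds 1 ISRE, 1 kappaB and 1 AP-1 match, that of Cxcl2 is at chr5:90903789-90903868 on the plus strand and holds 2 kappaB matches that overlap on opposite strands, and that of the interferon-stimulated gene Isg15 is at chr4:156200849-156200968 on the minus strand and holds 3 overlapping ISRE matches.
Cxcl10: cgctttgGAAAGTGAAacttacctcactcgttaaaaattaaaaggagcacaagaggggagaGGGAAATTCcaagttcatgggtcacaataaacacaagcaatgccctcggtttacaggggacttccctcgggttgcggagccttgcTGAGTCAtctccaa
Cxcl2: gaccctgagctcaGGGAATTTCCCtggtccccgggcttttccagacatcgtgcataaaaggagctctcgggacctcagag
Isg15: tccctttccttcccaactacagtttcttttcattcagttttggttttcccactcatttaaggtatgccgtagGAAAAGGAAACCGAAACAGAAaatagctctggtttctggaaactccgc

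Of the 15 genes with the largest rises, 12 matched a window, of which 3 held a kappaB match, 3 an ISRE match, 1 an AP-1 match and 0 a CRE match. The genes shown are among those with matches. Windows of Il1b, Ccrl2, Cmpk2, Clec4e, Tnf, Cdc42ep2 and Traf1 held no match to any of these motifs. Among 60 matched genes that rose by 4-fold or more, 10% held kappaB letters, 30% ISRE letters and 20% AP-1 letters, beside 3.61%, 8.27% and 7.43% of the 12242 matched genes on the array. Among 14 matched genes of the 15 largest falls, 1 held a kappaB match, 1 an ISRE match and 2 an AP-1 match. A match describes the letters in the window and does not show that a factor binds there.

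**Figure D2:**
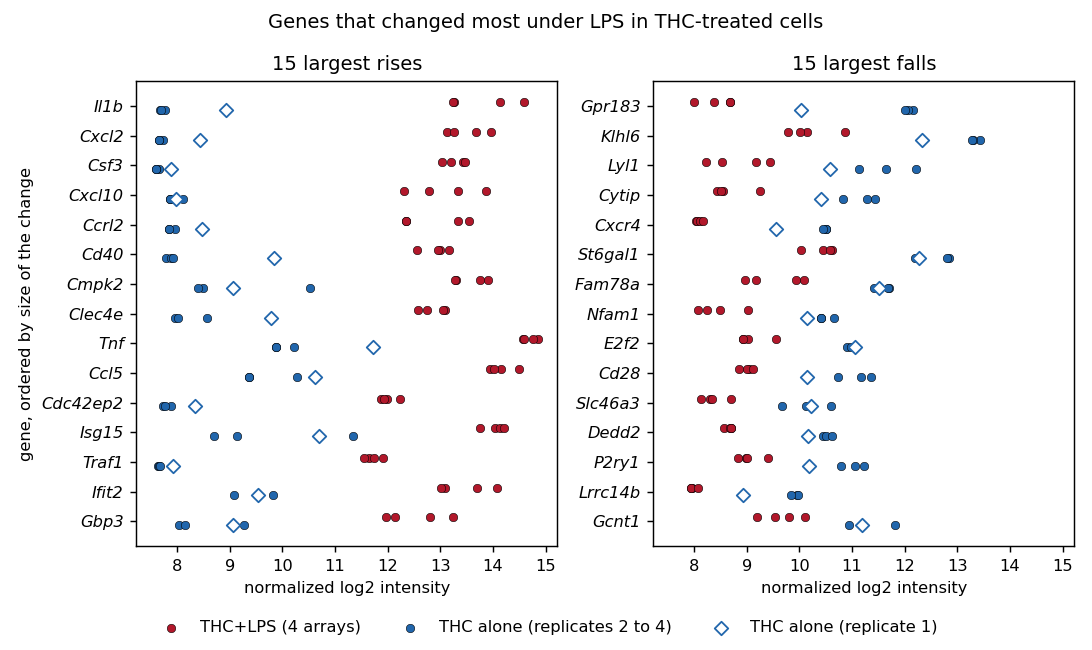
Normalized log2 intensity of the 15 genes with the largest rises (left) and the 15 with the largest falls (right) among called genes whose groups do not overlap, with 1 point per array, THC+LPS above THC alone for each gene and THC replicate 1 as an open diamond. The absence of overlap was part of the choice of genes, and for Cd40, Il1b and Gpr183 the diamond lies nearer to the THC+LPS points than the other THC arrays do.

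Genes of the NF-κB system and of feedback regulators of inflammatory signalling were mostly higher with LPS. Of the NF-κB and IκB list 10 of 14 measured members rose and 0 fell, with a median log2 fold change of 0.75. Nfkbiz, the gene of the nuclear IκB protein that acts on secondary response genes, measured 13.34, 13.8, 13.45 and 13.93 in THC+LPS arrays, against 12.84, 9.8, 9.0 and 9.55 in THC arrays, and THC replicate 1 lay just below the lowest THC+LPS array. Its log2 fold change was 3.33 (SE 0.50, adjusted p = 0.000181), and 4.18 (adjusted p = 5.10e-11) without that array. Ikbke, encoding a kinase related to IκB kinase, rose by 2.53 (SE 0.23, adjusted p = 5.19e-07), Nfkbie, encoding IκBε, by 2.25 (SE 0.40, adjusted p = 0.000848), and the subunit gene Relb by 1.76 (SE 0.15, adjusted p = 2.27e-07). The call of Nfkbiz was lost in a fit of the 8 arrays alone (3.33, adjusted p = 0.0564). Rel, Ikbkb, Nfkbid and Ikbkg did not pass, with values from 0.19 to 0.43.

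Of the feedback regulators 12 of 20 measured members rose and 1 fell, with a median log2 fold change of 0.52. Traf1, an adaptor of TNF receptors, had 11.65, 11.55, 11.74 and 11.91 in THC+LPS arrays, against 7.93, 7.64, 7.66 and 7.68 in THC arrays, a log2 fold change of 3.98 (SE 0.15, adjusted p = 2.23e-12), and 1 of the 4 THC arrays was above the detection limit. Tnfaip3, the gene of the ubiquitin-editing inhibitor A20, measured 11.95, 12.53, 11.84 and 12.94 in THC+LPS arrays, against 10.06, 8.54, 8.79 and 8.39 in THC arrays, a log2 fold change of 3.37 (SE 0.36, adjusted p = 3.96e-06). Cish, an inhibitor of cytokine receptor signalling, rose by 3.78 (SE 0.50, adjusted p = 4.14e-05). Socs3, of the same family, rose by 3.35 (SE 0.38, adjusted p = 7.74e-06), with 11.84, 12.27, 11.87 and 13.15 in THC+LPS arrays, against 10.4, 8.38, 8.48 and 8.45 in THC arrays. THC replicate 1 was the highest THC array for Socs3 by almost 2 log2 units and still lay below all THC+LPS arrays. Zfp36l1, an RNA-binding decay factor, was the member that fell (-1.2, adjusted p = 0.00202), and it did not pass with median scaling (-0.80, adjusted p = 0.267).

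Of Toll-like receptor and adaptor genes 7 of 24 measured members rose and 1 fell, with a median log2 fold change of 0.069. Cd14, the LPS co-receptor, rose by 1.47 (SE 0.31, adjusted p = 0.00391), Irak2, a kinase of the MyD88 complex, by 1.62 (SE 0.24, adjusted p = 0.000135), and Tlr2, the receptor of bacterial lipoproteins, by 1.41 (SE 0.23, adjusted p = 0.000333). Tlr4 itself was the member that fell, with 9.14, 9.84, 8.92 and 9.81 in THC+LPS arrays, against 10.22, 10.16, 10.39 and 10.18 in THC arrays, a log2 fold change of -0.81 (SE 0.21, adjusted p = 0.0180). All 4 THC+LPS values of Tlr4 lay below the THC values, but its call was lost with median scaling (-0.42, adjusted p = 0.256), in the fit of 8 arrays (-0.81, adjusted p = 0.0853) and without THC+LPS replicate 1 or 3 or THC replicate 3 (-0.64 to -0.76, adjusted p = 0.0557 to 0.0734). Irak3, the gene of the inhibitory kinase IRAK-M, measured 11.34, 11.03, 11.06 and 10.73 in THC+LPS arrays, against 11.46, 8.61, 8.46 and 8.53 in THC arrays, and the groups overlapped through THC replicate 1. It passed the test with all arrays, 1.77 (SE 0.43, adjusted p = 0.0123), and with THC replicate 1 left out the value was 2.5 (adjusted p = 5.96e-09). Its call was lost without THC replicate 2, 3 or 4 (1.5 to 1.55, adjusted p = 0.0526 to 0.0563) and in the fit of 8 arrays (1.77, adjusted p = 0.224).

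Among MAP kinase phosphatases and kinases 5 of 19 measured members rose and 0 fell, with a median log2 fold change of 0.16. Dusp16, a phosphatase of JNK and p38, rose by 2.02 (SE 0.15, adjusted p = 7.22e-08), the p38 substrate kinase gene Mapkapk2 by 1.27 (SE 0.15, adjusted p = 1.40e-05) and the phosphatase gene Dusp2 by 0.95 (SE 0.23, adjusted p = 0.00962). Map3k8, which encodes the kinase TPL2, had 9.77, 10.44, 9.75 and 10.6 in THC+LPS arrays, against 9.8, 8.22, 8.3 and 8.19 in THC arrays. Its groups overlapped because of THC replicate 1, the log2 fold change was 1.51 (SE 0.31, adjusted p = 0.00347), and it was 1.9 (adjusted p = 5.01e-05) without that array. The gene did not pass in the fit of 8 arrays (1.51, adjusted p = 0.0869). Of AP-1 and ATF factors 7 of 17 measured members rose and 1 fell, with a median log2 fold change of 0.24. Atf3, a stress-induced repressor, rose by 1.64 (SE 0.32, adjusted p = 0.00221), Jdp2 by 1.59 (SE 0.25, adjusted p = 0.000286) and the small Maf gene Maff by 1.42 (SE 0.11, adjusted p = 6.38e-08). The immediate early gene Fos fell, at 8.6, 9.94, 8.59 and 9.54 in THC+LPS arrays, against 10.6, 10.38, 10.77 and 10.34 in THC arrays, a log2 fold change of -1.36 (SE 0.33, adjusted p = 0.0119). The fall of Fos did not pass with median scaling (-1.0, adjusted p = 0.0759) or with the 8 arrays alone (-1.36, adjusted p = 0.0561).

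Interferon-stimulated effector genes were called in 1 direction only, and the share of called members was second to that of the NF-κB list. Among them 26 of 38 measured members rose and 0 fell, with a median log2 fold change of 1.6. Cmpk2, a mitochondrial nucleoside kinase gene, measured 13.3, 13.74, 13.27 and 13.9 in THC+LPS arrays, against 9.06, 8.49, 10.52 and 8.39 in THC arrays, a log2 fold change of 4.44 (SE 0.53, adjusted p = 1.48e-05). Isg15, a ubiquitin-like modifier, measured 14.04, 13.76, 14.13 and 14.21 in THC+LPS arrays, against 10.69, 8.71, 11.35 and 9.14 in THC arrays, and its change was 4.06 (SE 0.62, adjusted p = 0.000195). THC replicate 3 was the highest THC array for Isg15 and lay below every THC+LPS array. Ifit2, which binds viral RNA, had 13.08, 13.7, 13.01 and 14.08 in THC+LPS arrays, against 9.53, 9.52, 9.82 and 9.08 in THC arrays and rose by 3.98 (SE 0.39, adjusted p = 1.42e-06), and Gbp3, a guanylate-binding protein gene, had 11.97, 12.8, 12.14 and 13.25 in THC+LPS arrays, against 9.07, 8.04, 9.28 and 8.15 in THC arrays and rose by 3.91 (SE 0.44, adjusted p = 7.74e-06). The 12 members that did not pass ranged from -0.012 to 0.79, with Ifit1 at -0.00040, Iigp1 at 0.024 and Zbp1 at 0.017 among them. Detection on any of the 8 arrays held for 33 of the 38 members, so a value near 0 need not show a lack of response. Of 24 of the 26 called genes that matched a promoter window, 13 (54.2%) held the ISRE letters shown above for Isg15. Over the 12242 matched genes on the array the share was 8.27%. The list was chosen as interferon-stimulated genes, and its members that were not called were not counted apart, so the share is a description only.

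Upstream of these genes, in the list of interferon response factors and JAK/STAT genes, 10 of 23 measured members rose and 0 fell, with a median log2 fold change of 0.12. Ifnb1, the gene of interferon-β, was not detected on any THC array and was at least 3.03-fold higher with LPS, at 8.62, 8.99, 8.86 and 10.92 in THC+LPS arrays, against 7.66, 7.7, 7.66 and 7.66 in THC arrays (adjusted p = 0.0199). Its call was lost without THC+LPS replicate 4 or THC replicate 4 (1.15 to 1.67, adjusted p = 0.0504 to 0.0713) and in the fit of 8 arrays (1.67, adjusted p = 0.104). Irf1 measured 12.53, 12.9, 12.62 and 13.35 in THC+LPS arrays, against 9.62, 9.46, 9.68 and 9.7 in THC arrays, a log2 fold change of 3.24 (SE 0.29, adjusted p = 5.70e-07). Stat2, a subunit of the ISGF3 complex, rose by 2.08 (SE 0.25, adjusted p = 1.39e-05), the kinase gene Jak2 by 1.86 (SE 0.34, adjusted p = 0.00123) and the interferon-induced factor gene Irf7 by 1.89 (SE 0.54, adjusted p = 0.0347). Irf7 varied within the groups, at 10.03, 11.17, 9.97 and 11.34 in THC+LPS arrays, against 9.08, 8.03, 9.81 and 8.04 in THC arrays, and its call was lost without THC+LPS replicate 2 or 4 or THC replicate 2 or 4 (1.65 to 1.71, adjusted p = 0.107 to 0.123) and in the fit of 8 arrays (1.89, adjusted p = 0.0871). Irf3 and Irf8, both expressed without stimulation, had values of -0.20 (adjusted p = 0.468) and -0.32 (adjusted p = 0.533) and did not pass.

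Of the MHC and antigen processing list 6 of 25 measured members rose and 0 fell, with a median log2 fold change of 0.40. Tap1, a subunit of the peptide transporter, rose by 1.72 (SE 0.37, adjusted p = 0.00422), Nlrc5, the transactivator of MHC class I genes, by 1.55 (SE 0.20, adjusted p = 4.14e-05), Tap2 by 1.51 (SE 0.45, adjusted p = 0.0418) and Tapbpl, an editor of peptide loading, by 1.11 (SE 0.22, adjusted p = 0.00256). The call of Tap2 was lost without THC+LPS replicate 2, 3 or 4 or THC replicate 2 or 4 (1.18 to 1.62, adjusted p = 0.0523 to 0.165) and in the fit of 8 arrays (1.51, adjusted p = 0.0948). Of TNF superfamily genes 4 of 24 measured members rose and 0 fell, with a median log2 fold change of 0.0076. Cd40, a costimulatory receptor, measured 12.55, 12.997, 12.95 and 13.16 in THC+LPS arrays, against 9.83, 7.79, 7.88 and 7.92 in THC arrays, and THC replicate 1 was about 2 log2 units above the other THC arrays. The log2 fold change was 4.56 (SE 0.35, adjusted p = 8.32e-08), and 5.05 (adjusted p = 1.60e-10) without that array. Fas, a death receptor, rose by 1.8 (SE 0.16, adjusted p = 4.73e-07), the ligand gene Tnfsf9 by 1.12 (SE 0.23, adjusted p = 0.00302), and Tnfrsf1b, a TNF receptor not detected on any THC array, was at least 1.13-fold higher (adjusted p = 0.0104). The rise of Tnfrsf1b turned to -0.13 when arrays were scaled to the median of the detected probes.

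Genes of prostanoid, nitric oxide and acute phase products rose in part, and several were already high on THC replicate 1. In this list 7 of 19 measured members rose and 1 fell, with a median log2 fold change of 0.80. Without THC replicate 1, 9 members rose and 1 fell. Ptgs2, the gene of cyclooxygenase-2, was not detected on any THC array and was at least 3.44-fold higher, at 9.05, 10.37, 8.5 and 10.2 in THC+LPS arrays, against 7.64, 7.67, 7.67 and 7.67 in THC arrays (adjusted p = 0.00311). Gch1, which starts the synthesis of the nitric oxide synthase cofactor tetrahydrobiopterin, rose by 2.11 (SE 0.36, adjusted p = 0.000507). Nos2, encoding inducible nitric oxide synthase, was at least 1.91-fold higher (adjusted p = 0.0279) and was not detected on any THC array. It did not pass without THC+LPS replicate 4 or without any 1 THC array (0.79 to 1.05, adjusted p = 0.0538 to 0.121). Saa3, an acute phase serum amyloid gene, measured 15.01, 15.01, 15.05 and 15.03 in THC+LPS arrays, against 15.05, 9.79, 9.9 and 9.52 in THC arrays. THC replicate 1 stood at the level of the THC+LPS arrays and the groups overlapped, so the log2 fold change of 3.96 (SE 0.79, adjusted p = 0.00231) became 5.29 (adjusted p = 6.12e-10) without it, and the call was lost in a fit of the 8 arrays (3.96, adjusted p = 0.124). The highest normalized value on any array was 15.3, and the Saa3 values with LPS lay close to it. Lcn2, the gene of an iron-scavenging lipocalin, had 10.03, 10.08, 10.15 and 9.31 in THC+LPS arrays, against 12.4, 7.6, 7.64 and 7.63 in THC arrays. Hp, the gene of haptoglobin, had 12.32, 10.53, 11.22 and 9.2 in THC+LPS arrays, against 12.8, 8.69, 7.73 and 8.31 in THC arrays. Both were highest on THC replicate 1 and did not pass with that array in the fit (adjusted p = 0.567 and 0.443). The protease inhibitor gene Slpi rose by 1.57 (SE 0.43, adjusted p = 0.0283) with overlapping groups, and its call was lost without THC+LPS replicate 1, 2 or 3 or THC replicate 2, 3 or 4 (1.31 to 1.53, adjusted p = 0.0652 to 0.110) and in the fit of 8 arrays (1.57, adjusted p = 0.192). Alox5ap, of leukotriene synthesis, fell (-0.52, adjusted p = 0.00731) and did not pass with median scaling (-0.11, adjusted p = 0.726), with scaling to the detected probes (-0.51, adjusted p = 0.148) or in the fit of 8 arrays (-0.52, adjusted p = 0.0924).

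Among inflammasome genes and pattern receptors 8 of 17 measured members rose and 0 fell, with a median log2 fold change of 0.54. Clec4e, the gene of the glycolipid receptor Mincle, measured 12.74, 13.09, 12.57 and 13.06 in THC+LPS arrays, against 9.79, 7.96, 8.56 and 8.01 in THC arrays, a log2 fold change of 4.28 (SE 0.39, adjusted p = 6.54e-07). Casp4, the gene of the caspase that senses cytosolic LPS, rose by 2.35 (SE 0.31, adjusted p = 4.58e-05) and the peptidoglycan sensor gene Nod2 by 1.29 (SE 0.12, adjusted p = 6.54e-07). The inflammasome sensor gene Nlrp3 rose by 1.27 (adjusted p = 2.97e-07), while the adaptor gene Pycard had 0.037 (adjusted p = 0.494). Fpr2, a formyl peptide receptor, had 9.05, 9.49, 8.89 and 10.21 in THC+LPS arrays, against 9.08, 7.59, 7.64 and 7.6 in THC arrays. THC replicate 1 overlapped the THC+LPS arrays, the value was 1.43 (SE 0.35, adjusted p = 0.0135), and the call was lost without THC+LPS replicate 4 or THC replicate 2 or 4 (1.16 to 1.31, adjusted p = 0.0522 to 0.0625) and in the fit of 8 arrays (1.43, adjusted p = 0.117).

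Of adhesion, protease and migration genes 7 of 27 measured members rose and 0 fell, with a median log2 fold change of 0.11. Icam1, a ligand of leukocyte integrins, rose by 1.96 (SE 0.23, adjusted p = 1.20e-05), the urokinase receptor gene Plaur by 2.04 (SE 0.39, adjusted p = 0.00168) and the integrin gene Itga5 by 1.88 (SE 0.33, adjusted p = 0.000854). Mmp13, the gene of a collagenase, had 10.66, 13.93, 10.59 and 14.03 in THC+LPS arrays, against 8.13, 7.71, 10.11 and 7.7 in THC arrays and rose by 3.89 (SE 0.98, adjusted p = 0.0156). The replicates of Mmp13 differed by over 3 log2 units within THC+LPS, and the call was lost without THC+LPS replicate 2 or 4 or THC replicate 2 or 4 (3.32 to 3.66, adjusted p = 0.0527 to 0.0677) and in the fit of 8 arrays (3.89, adjusted p = 0.0785). Of apoptosis and survival genes 10 of 23 measured members rose and 1 fell, with a median log2 fold change of 0.20. The A1 family of survival genes led them, with Bcl2a1a at 2.82 (SE 0.26, adjusted p = 7.95e-07), Bcl2a1d at 1.65 (SE 0.19, adjusted p = 7.22e-06) and Bcl2a1b at 1.11 (SE 0.18, adjusted p = 0.000417). These are near-identical copies, and probes may not separate them. Gadd45a, a DNA damage response gene, rose by 0.98 (SE 0.28, adjusted p = 0.0375), a call lost without THC+LPS replicate 2 or 4 or THC replicate 2, 3 or 4 (0.88 to 1.0, adjusted p = 0.0671 to 0.115). Casp9, an initiator caspase gene, fell (-0.87, adjusted p = 0.000617) and did not pass with median scaling (-0.47, adjusted p = 0.374). Of the other genes with the largest rises, Cdc42ep2, an effector of the small GTPase CDC42, measured 11.87, 11.99, 11.92 and 12.23 in THC+LPS arrays, against 8.34, 7.73, 7.89 and 7.76 in THC arrays, a log2 fold change of 4.07 (SE 0.14, adjusted p = 5.96e-13).

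**Figure D3:**
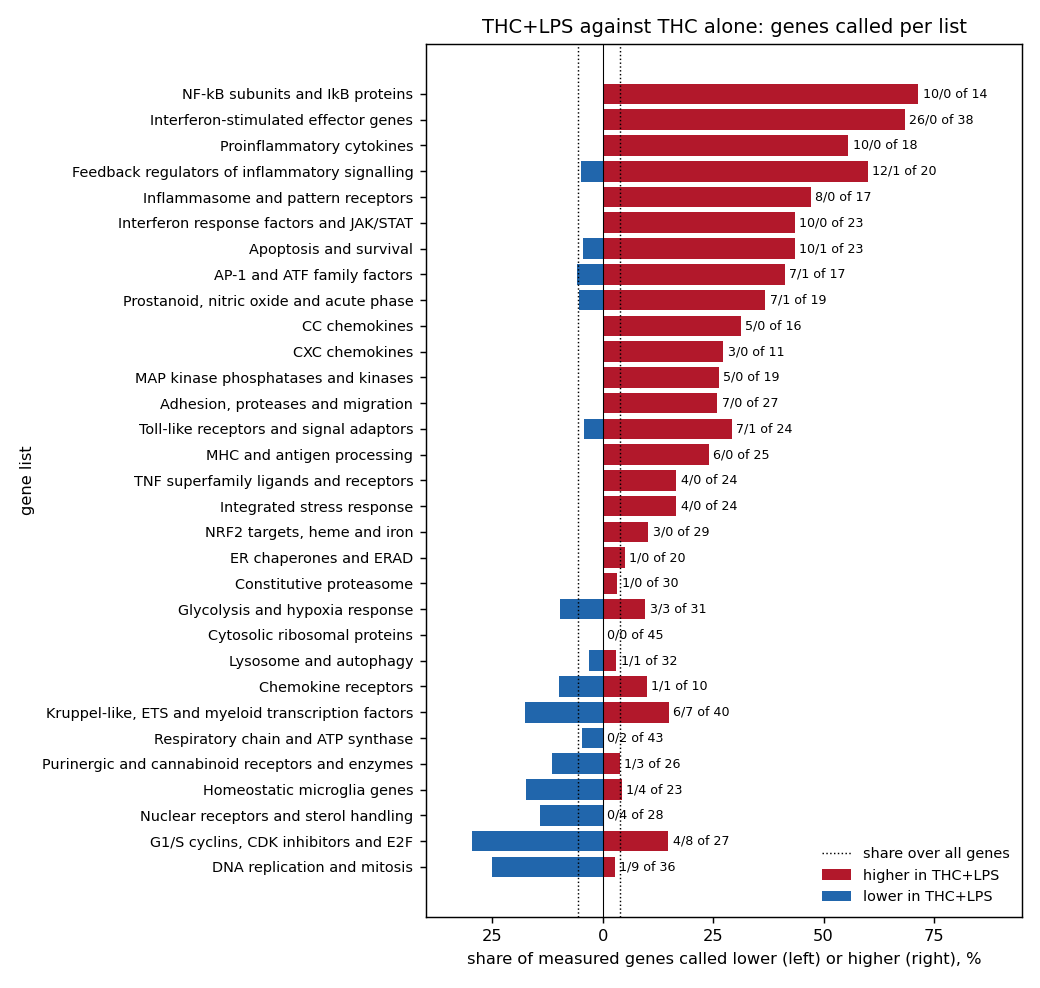
Share of the measured genes of each list that was called higher (red, right) or lower (blue, left) in THC+LPS against THC alone, with the counts beside each bar and dotted lines at the shares over all genes, 3.92% and 5.51%. The NF-κB list, with 10 of 14 higher, and interferon-stimulated effectors, with 26 of 38, lie at the top, and replication and mitosis, with 9 of 36 lower (0 with median scaling), at the bottom end.

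The 5 largest falls without overlap between the groups were those of Gpr183, Klhl6, Lyl1, Cytip and Cxcr4. Gpr183, a receptor for oxysterols that guides immune cells, measured 8.69, 8.68, 8.37 and 7.99 in THC+LPS arrays, against 10.03, 12.15, 12.06 and 11.999 in THC arrays. THC replicate 1 was the lowest THC array by almost 2 log2 units. The log2 fold change was -3.12 (SE 0.36, adjusted p = 1.05e-05), and -3.63 (adjusted p = 2.54e-08) without that array. Klhl6, a BTB-kelch protein gene of B cells and myeloid cells, measured 10.15, 10.02, 9.78 and 10.86 in THC+LPS arrays, against 12.32, 13.43, 13.3 and 13.27 in THC arrays, a log2 fold change of -2.88 (SE 0.30, adjusted p = 2.71e-06). Lyl1, a basic helix-loop-helix factor of hematopoietic cells, measured 9.45, 8.54, 9.18 and 8.23 in THC+LPS arrays, against 10.58, 12.22, 11.13 and 11.64 in THC arrays, a log2 fold change of -2.54 (SE 0.45, adjusted p = 0.000868). Cytip, which binds cytohesin and limits adhesion, had 8.54, 8.44, 8.5 and 9.25 in THC+LPS arrays, against 10.42, 11.44, 10.83 and 11.29 in THC arrays and fell by 2.31 (SE 0.31, adjusted p = 5.29e-05). Cxcr4, the receptor of the chemokine CXCL12, had 8.04, 8.06, 8.1 and 8.18 in THC+LPS arrays, against 9.55, 10.5, 10.51 and 10.45 in THC arrays and fell by 2.16 (SE 0.25, adjusted p = 7.74e-06).

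Further genes among the 15 largest falls were the sialyltransferase gene St6gal1 (-2.11), the ITAM receptor gene Nfam1 (-1.94), E2f2 (-1.88), the costimulatory receptor gene Cd28 (-1.85), the lysosomal transporter gene Slc46a3 (-1.79), the death effector domain gene Dedd2 (-1.78), the glycosyltransferase gene Gcnt1 (-1.63), Fam78a (-2.04) and Lrrc14b (-1.69), all log2 fold changes with adjusted p between 7.95e-07 and 0.000479. The fall of Fam78a did not pass with median scaling (-1.66, adjusted p = 0.0680). P2ry1, a receptor for extracellular ADP, had 9.41, 8.99, 9.0 and 8.83 in THC+LPS arrays, against 10.19, 11.22, 10.79 and 11.05 in THC arrays, a log2 fold change of -1.76 (SE 0.18, adjusted p = 2.31e-06). It belongs to the purinergic and cannabinoid list, in which 1 of 26 measured members rose (3.85%) and 3 fell (11.5%). Over all genes the shares were 3.92% and 5.51%, and over detected genes 7.33% and 10.3%. The median log2 fold change of the list was -0.012. Daglb, whose product makes the endocannabinoid 2-arachidonoylglycerol in microglia, fell, with 9.92, 10.51, 9.89 and 10.47 in THC+LPS arrays, against 11.38, 11.39, 11.92 and 11.48 in THC arrays, a log2 fold change of -1.34 (SE 0.25, adjusted p = 0.00148), which did not pass with median scaling (-0.95, adjusted p = 0.125). P2ry2, a receptor for ATP and UTP, rose by 0.96 (SE 0.13, adjusted p = 6.15e-05). Cnr2, the gene of the cannabinoid receptor CB2, measured 7.66, 7.77, 7.66 and 7.65 in THC+LPS arrays, against 7.86, 8.08, 8.2 and 8.03 in THC arrays, with 1 of 4 THC+LPS and 4 of 4 THC arrays above the detection limit. All its values were near the floor, and the log2 fold change was -0.36 (SE 0.060, adjusted p = 0.000479). With arrays scaled to the median of the detected probes it was -0.70 (adjusted p = 0.164). Cnr1, the gene of the receptor CB1, had 0.015 (adjusted p = 0.906), and Gpr55 was not analysed here.

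Genes that mark resting microglia were mostly not called, and 4 of those that were fell. In this list 1 of 23 measured members rose (4.35%) and 4 fell (17.4%), beside 3.92% and 5.51% of all genes. Its median log2 fold change was -0.099. Mertk, a receptor for the clearance of dying cells, measured 7.78, 7.99, 7.81 and 8.27 in THC+LPS arrays, against 8.99, 9.31, 9.28 and 9.13 in THC arrays, a log2 fold change of -1.22 (SE 0.13, adjusted p = 3.14e-06). The factor gene Mef2c fell by 0.90 (SE 0.23, adjusted p = 0.0187) and the TGF-β receptor gene Tgfbr2 by 0.64 (SE 0.15, adjusted p = 0.00938). The call of Mef2c was lost without THC+LPS replicate 3 or 4 or THC replicate 2 or 4 (-0.79 to -0.86, adjusted p = 0.0519 to 0.0735), and those of Mef2c (-0.50, adjusted p = 0.406) and Tgfbr2 (-0.25, adjusted p = 0.581) were lost with median scaling. Tmem119 was detected on all THC arrays and on no THC+LPS array, and was at least 1.03-fold lower (adjusted p = 0.00682), which did not pass with median scaling (-0.079, adjusted p = 0.135). Spi1, the gene of the myeloid factor PU.1, rose by 0.96 (SE 0.18, adjusted p = 0.00108). P2ry12, Siglech and Sall1 lay between -0.012 and 0.028 and did not pass. Of the 23 measured members 20 were detected on any of the 8 arrays, and a value near 0 can be that of an undetected gene.

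Of nuclear receptor and sterol genes 0 of 28 measured members rose and 4 fell, with a median log2 fold change of -0.0074, Gpr183 among the falls. Ppargc1b, a coactivator gene of mitochondrial metabolism, measured 9.41, 9.09, 9.54 and 8.95 in THC+LPS arrays, against 10.79, 10.65, 10.2 and 10.4 in THC arrays, a log2 fold change of -1.26 (SE 0.17, adjusted p = 5.54e-05). The retinoid X receptor gene Rxrb fell by 0.58 (SE 0.16, adjusted p = 0.0322) and the clock repressor gene Nr1d1 by 0.15 (SE 0.041, adjusted p = 0.0281). With median scaling none of Ppargc1b (-0.87, adjusted p = 0.235), Rxrb (-0.16, adjusted p = 0.745) and Nr1d1 (-0.091, adjusted p = 0.317) passed. The call of Rxrb was also lost without THC+LPS replicate 2 or 4 or THC replicate 2, 3 or 4 (-0.50 to -0.60, adjusted p = 0.0571 to 0.118), and that of Nr1d1 without THC+LPS replicate 1, 3 or 4 or THC replicate 1, 2 or 4 (-0.14 to -0.16, adjusted p = 0.0502 to 0.0833). In the list of Krüppel-like, ETS and myeloid factors 6 of 40 measured members rose and 7 fell, with a median log2 fold change of -0.014, and with median scaling 5 rose and 3 fell. Ets2 rose by 1.53 (SE 0.25, adjusted p = 0.000417) and Klf7 by 1.36 (SE 0.13, adjusted p = 7.28e-07), and the homeobox gene Meis1 fell, with 8.51, 8.31, 8.48 and 8.4 in THC+LPS arrays, against 9.71, 9.91, 9.73 and 9.75 in THC arrays and a log2 fold change of -1.35 (SE 0.10, adjusted p = 5.02e-08).

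Cell cycle genes were called in both directions, with the inhibitor genes Cdkn1a and Cdkn2b higher and genes of S phase entry such as E2f2 and Cdc6 lower. Of the G1/S list 4 of 27 measured members rose and 8 fell, with a median log2 fold change of -0.097. Cdkn1a, the gene of the CDK inhibitor p21, measured 12.79, 13.26, 12.96 and 13.38 in THC+LPS arrays, against 8.71, 10.73, 10.05 and 10.63 in THC arrays, a log2 fold change of 3.07 (SE 0.32, adjusted p = 3.13e-06). Cdkn2b, the gene of the inhibitor p15, rose by 1.72 (SE 0.40, adjusted p = 0.00822). E2f2, an activator of S phase genes, had 8.93, 9.02, 8.93 and 9.55 in THC+LPS arrays, against 11.06, 10.9, 11.03 and 10.98 in THC arrays and fell by 1.88 (SE 0.18, adjusted p = 7.95e-07). Ccnd1, the gene of cyclin D1, had 11.64, 11.63, 11.4 and 11.59 in THC+LPS arrays, against 12.68, 12.91, 13.3 and 12.88 in THC arrays and fell by 1.38 (SE 0.25, adjusted p = 0.000899). Of replication and mitosis genes 1 of 36 measured members rose and 9 fell, with a median log2 fold change of -0.19. The falls were those of Cdc6, which licenses origins (-1.26, SE 0.18, adjusted p = 0.000112), thymidine kinase Tk1 (-0.92, SE 0.23, adjusted p = 0.0147), the spindle checkpoint kinase Bub1b (-0.59, SE 0.14, adjusted p = 0.00830), the licensing factor Cdt1 (-0.51, SE 0.12, adjusted p = 0.00896, with overlapping groups), Rfc4 and 4 helicase genes, Mcm2, Mcm4, Mcm5 and Mcm7. Genes of mitosis such as Ccnb2, Cdk1 and Plk1 lay between -0.13 and 0.012 and did not pass, and Top2a rose (0.26, adjusted p = 0.0191), a call lost without THC+LPS replicate 1 or 3 or THC replicate 3 or 4 (0.23 to 0.25, adjusted p = 0.0569 to 0.0734). The falls depended on the scaling. With median scaling 0 of the replication and mitosis genes were called in either direction and 1 of the G1/S genes was lower, and with scaling to the detected probes these lists had 4 and 6 lower. Mcm4 (0.046) and Mcm5 (0.051) turned with median scaling, under which Ccnd1 (-0.99, adjusted p = 0.176), Cdc6 (-0.87, adjusted p = 0.0531), Tk1 (-0.52, adjusted p = 0.374), Bub1b (-0.18, adjusted p = 0.734) and Cdt1 (-0.093, adjusted p = 0.793) did not pass, nor did Cdt1 in the fit of 8 arrays (-0.51, adjusted p = 0.124).

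Genes of stress responses and metabolism were called in small numbers per list. Of the integrated stress response list 4 of 24 measured members rose (16.7%) and 0 fell. Over all genes 3.92% rose, and over detected genes 7.33%. The median log2 fold change of the list was 0.0042. Slc7a11, the cystine transporter gene, measured 10.49, 11.002, 10.68 and 10.93 in THC+LPS arrays, against 8.41, 8.03, 8.03 and 8.21 in THC arrays, a log2 fold change of 2.6 (SE 0.34, adjusted p = 3.27e-05). Ppp1r15a, the gene of the phosphatase subunit GADD34, rose by 2.07 (SE 0.24, adjusted p = 8.32e-06), Nupr1 by 1.51 (SE 0.33, adjusted p = 0.00451) and Cebpb by 0.92 (SE 0.13, adjusted p = 6.40e-05). Trib3, a pseudokinase gene of this response, measured 8.22, 7.7, 8.07 and 7.7 in THC+LPS arrays, against 7.82, 7.97, 7.76 and 7.96 in THC arrays. Its groups overlapped, with a log2 fold change of 0.045 (adjusted p = 0.961). Of ER chaperone and ERAD genes 1 of 20 measured members rose and 0 fell, with a median log2 fold change of -0.0024, the rise being that of Herpud1 (1.09, SE 0.19, adjusted p = 0.000701).

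Of NRF2 target, heme and iron genes 3 of 29 measured members rose and 0 fell, with a median log2 fold change of 0.0026. These were the autophagy receptor gene Sqstm1 (1.52, SE 0.23, adjusted p = 0.000176), the iron transporter gene Slc11a2 (1.27, SE 0.22, adjusted p = 0.000746) and Nfe2l2, the gene of NRF2 itself (0.74, SE 0.12, adjusted p = 0.000472). The call of Slc11a2 was lost in the fit of 8 arrays (1.27, adjusted p = 0.0608). Hmox1, the gene of heme oxygenase-1, had values of 14.93, 15.02, 14.89 and 14.05 in THC+LPS arrays, against 13.19, 14.17, 13.97 and 14.01 in THC arrays. THC+LPS replicate 4 lay among the THC arrays, the groups overlapped, and the log2 fold change of 0.89 (adjusted p = 0.110) did not pass, although it did without that array (1.11, adjusted p = 0.0487).

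Of glycolysis and hypoxia genes 3 of 31 measured members rose and 3 fell (9.68% each), beside 7.33% and 10.3% of detected genes. Their median log2 fold change was -0.020. Slc2a6, a lysosomal hexose transporter gene, measured 13.76, 13.25, 13.65 and 13.69 in THC+LPS arrays, against 10.98, 10.62, 9.98 and 10.47 in THC arrays, a log2 fold change of 3.07 (SE 0.24, adjusted p = 8.54e-08). The glucose transporter gene Slc2a1 rose by 0.96 (SE 0.23, adjusted p = 0.00914) and the regulatory enzyme gene Pfkfb3 by 0.47 (SE 0.12, adjusted p = 0.0185). The call of Pfkfb3 was lost without THC+LPS replicate 2 or 4 or THC replicate 3 or 4 (0.39 to 0.46, adjusted p = 0.0538 to 0.0827) and in the fit of 8 arrays (0.47, adjusted p = 0.0669). Pdk1, a kinase gene that limits pyruvate oxidation, fell (-0.69, SE 0.14, adjusted p = 0.00279) and did not pass with median scaling (-0.30, adjusted p = 0.529). Of lysosome and autophagy genes 1 of 32 measured members rose and 1 fell (3.1% each), below the shares of 3.92% and 5.51% over all genes. Their median log2 fold change was -0.0089. The channel gene Mcoln2 rose by 1.58 (SE 0.19, adjusted p = 1.39e-05). The kinase gene Ulk1 fell by 0.21 (SE 0.060, adjusted p = 0.0331), a call lost without THC+LPS replicate 2, 3 or 4 or THC replicate 2, 3 or 4 (-0.18 to -0.22, adjusted p = 0.0598 to 0.121) and with median scaling (-0.085, adjusted p = 0.468).

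The housekeeping lists stayed near the share over all genes or below it. Of 45 cytosolic ribosomal protein genes 0 rose and 0 fell (median -0.029). Of 43 respiratory chain genes 0 rose and 2 fell (median -0.10), namely Ndufs7 (-0.32, SE 0.077, adjusted p = 0.0101) and Ndufs8 (-0.27, SE 0.083, adjusted p = 0.0481), both subunits of complex I. With median scaling these values were 0.086 and 0.14, so their direction depends on the scaling, and the call of Ndufs8 was lost without THC+LPS replicate 1, 2 or 4 or THC replicate 1, 2 or 4 (-0.23 to -0.30, adjusted p = 0.0563 to 0.170) and in the fit of 8 arrays (-0.27, adjusted p = 0.134). Of 30 constitutive proteasome genes 1 rose, Psmd8 (0.23, SE 0.061, adjusted p = 0.0219), with overlapping groups. Its call was lost without THC+LPS replicate 1 or 3 or THC replicate 2 or 4 (0.19 to 0.22, adjusted p = 0.0646 to 0.0855), with median scaling (0.59, adjusted p = 0.139) and in the fit of 8 arrays (0.23, adjusted p = 0.102).

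Some transcripts passed the detection limit in 1 group only. With LPS 28 genes were detected on all THC+LPS arrays and on no THC array, 19 of them called higher. Edn1, the gene of the vasoconstrictor endothelin-1, led them and was at least 5.63-fold higher, at 9.37, 10.59, 9.35 and 11.64 in THC+LPS arrays, against 7.73, 7.67, 7.74 and 7.68 in THC arrays. The adhesion gene Vcam1 (at least 2.69-fold), Il27 (at least 2.63-fold), a subunit gene of interleukin-27, and Gbp5 (at least 2.04-fold) followed Il6, Ptgs2 and Ifnb1. The call was lost without any 1 of 6 arrays for Il27 (1.2 to 1.52, adjusted p = 0.0810 to 0.166), of 5 arrays for Vcam1 (1.19 to 1.48, adjusted p = 0.0533 to 0.104) and without THC+LPS replicate 4 for Gbp5 (0.85, adjusted p = 0.0676). That of Gbp5 was also lost in the fit of 8 arrays (1.15, adjusted p = 0.0605). With scaling to the detected probes Gbp5, Vcam1 and Il27 did not pass (0.83 to 1.21, adjusted p = 0.126 to 0.199). In the other direction 31 genes were detected on all THC arrays and on no THC+LPS array, 22 of them called lower. Both sets were chosen by detection on these same arrays, which fixes the direction of a call, so the numbers of calls are a description only. Their bounds were small, the largest among the called ones being at least 1.28-fold for Lbh, whose call was lost with median scaling (-0.36, adjusted p = 0.105), and the Polycomb gene Cbx8 was at least 1.22-fold lower. The bounds set the mean of the brighter group against the lowest signal detected on each array of the other, or the gene's own value there where that was higher.

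Some genes differed widely between arrays of 1 group. The median range within a group over detected genes was 0.254 in THC+LPS and 0.251 in THC, but 247 genes spanned more than 1 log2 unit within THC+LPS and 313 within THC. Mmp12, the gene of macrophage elastase, had 8.06, 12.31, 8.13 and 11.98 in THC+LPS arrays, against 8.76, 7.66, 10.72 and 7.7 in THC arrays. Mmp13 was split in the same way, and Mfge8, which bridges dying cells to phagocytes, had 11.78, 14.01, 11.65 and 13.55 in THC+LPS arrays, against 13.3, 12.08, 13.64 and 11.99 in THC arrays. In all 3 genes THC+LPS replicates 2 and 4 were high and 1 and 3 low, and THC replicate 3 was the highest THC array. On the first component of the residuals of all arrays, which held 38.2% of their spread, THC+LPS arrays lay at -13.4, 13.2, -13.6 and 13.8 and THC arrays at 4.44, -10.6, 14.8 and -8.55. The Mmp12 difference between the groups was 1.41 (adjusted p = 0.632). The second pattern was that of THC replicate 1, with Saa3, Lcn2, Hp, Nfkbiz and Irak3 high, and 260 of the 594 genes called higher (43.8%) had their highest THC value on it, against 24.4% of all genes. These genes were picked after their values were seen, and the part of culture, handling or array in either pattern was not tested.

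**Figure D4:**
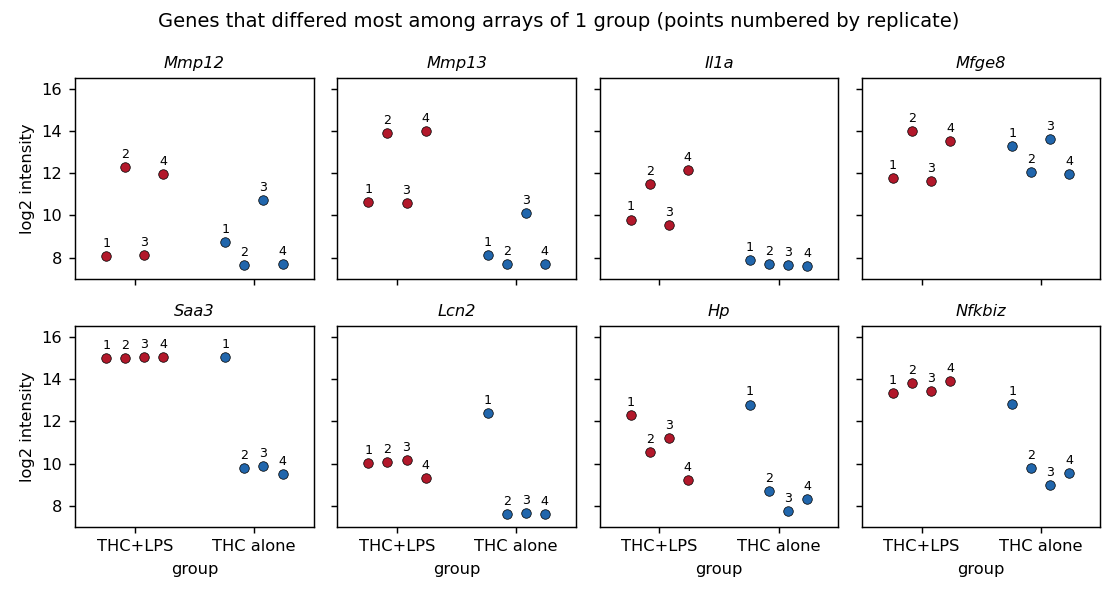
Normalized log2 intensity of 8 genes with wide ranges within a group, with 1 numbered point per array and THC+LPS left of THC alone. In the upper row Mmp12, Mmp13, Il1a and Mfge8 are high on THC+LPS replicates 2 and 4, and in the lower row Saa3, Lcn2, Hp and Nfkbiz are high on THC replicate 1.

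No probe passed the test for a difference between the LPS response with THC and that without a cannabinoid, and the genes called in each overlapped widely. The difference of both responses, (THC+LPS minus THC) minus (LPS minus Cntr), was called for 0 of 24611 probes (0%) by limma (727 probes at an unadjusted p under 0.05, and 56 at 0.005 or less, where chance gives 123). The 95% interval of the difference lay within 1.5-fold for 1038 of the 1430 called genes and within 2-fold for 1311, and its median width was 0.62 on the log2 scale. Over the 7914 detected genes the log2 fold changes had r = 0.964 (Spearman's rho 0.870), as a description across genes, which are not independent replicates. No array was shared between the responses. Of the 594 genes that rose with THC, 550 (92.6%) also rose without a cannabinoid, which is 61.1% of the 900 called there (5.94% of all genes). Of the 836 falls 747 (89.4%) were shared, 55.3% of the 1352 called there (8.92%). No gene was called in opposite directions. The response with THC rests on 4 against 4 arrays and the other on 6 against 6.

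For leading genes of the response the intervals were wide. Il1b rose by 5.78 with THC and by 6.53 without a cannabinoid, a difference of -0.75 [-1.97, 0.47] (95% interval in brackets). The difference was -0.65 [-1.51, 0.21] for Tnf, -0.14 [-0.98, 0.69] for Cxcl10 and 0.31 [-0.67, 1.3] for Gpr183. These intervals include 0, and those of Il1b, Tnf and Gpr183 reach beyond 1 log2 unit at their far ends. Herpud1, an ER stress gene, rose by 1.09 with THC and by 1.88 without, a difference of -0.79 [-1.3, -0.28]. Dusp2 rose by 0.95 with THC and by 1.82 without, a difference of -0.87 [-1.48, -0.26]. Klf7 rose by 1.36 with THC and by 1.87 without, a difference of -0.51 [-0.85, -0.17]. The intervals of these 3 genes exclude 0 when taken singly, but none passed after adjustment over all probes, where each adjusted p was 1.00, and they were singled out after their values were seen. Of the 10 genes with the smallest p of this difference, Slc35a3, a nucleotide sugar transporter gene, was detected on all 8 arrays and differed by 0.34 [0.15, 0.53]. The others were Defb26, 3300002I08Rik, Cyp4f39, Rgr, Unc5d, Trim68, Olfr437, Crym and Olfr464, with differences between -0.21 and 0.090, and 7 of these 9 were detected on at most 1 array of either group.

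THC and CBD are isomers in which THC has a closed pyran ring where CBD has a free phenol group, and the LPS response was compared between them at the same dose and times as 1 pair of compounds. The difference of the responses, (THC+LPS minus THC) minus (CBD+LPS minus CBD), was called for 2 of 24611 probes (0.00813%), with 924 at an unadjusted p under 0.05 and 74 at 0.005 or less, where chance gives 123. One of them was Pi16, a protease inhibitor gene, with a difference of 0.23 (SE 0.032, adjusted p = 0.0136), responses of -0.042 with THC and -0.27 with CBD, and detection on 2 of 24 arrays. The call of Pi16 was lost under 8 alternatives (0.16 to 0.75, adjusted p = 0.0518 to 1.00) and without CBD replicate 1 (0.19, adjusted p = 0.122). CBD groups hold 2 arrays each, and the number of calls was 47 without CBD+LPS replicate 1, 26 without CBD replicate 2, 12 without CBD+LPS replicate 2, 3 without THC replicate 3 and 0 without CBD replicate 1.

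Over detected genes the log2 fold changes with THC and with CBD had r = 0.907 (Spearman's rho 0.774), again as a description across genes and with no shared array. Of the 594 rises with THC 224 (37.7%) were also called with CBD, 86.5% of the 259 called there (1.71% of all genes). Of the 836 falls 224 (26.8%) were, 87.5% of the 256 called there (1.69%). The 95% interval of the difference lay within 1.5-fold for 717 of the 1430 called genes and within 2-fold for 1158, with a median width of 0.83. Il1b differed by 1.7 [0.070, 3.34], Tnf by -0.16 [-1.31, 0.99], Cxcl10 by 1.26 [0.14, 2.38] and Gpr183 by -0.52 [-1.84, 0.80]. The intervals of Il1b and Cxcl10 exclude 0 when taken singly, with the larger rise with THC, but neither passed after adjustment over all probes (adjusted p = 1.00 and 1.00). Next after the called probes by p was Dusp8, a phosphatase gene of MAP kinases, which was detected on all THC+LPS arrays and on no THC array, rose by at least 1.25-fold with THC and differed by -0.62 [-0.86, -0.38] (adjusted p = 0.280). Rab20, a small GTPase gene of phagosomes, rose by 0.52 (SE 0.038, adjusted p = 4.59e-08) with THC and differed by 0.29 [0.15, 0.43] (adjusted p = 0.887). Without CBD+LPS replicate 1 the differences of Dusp8 (-0.72, adjusted p = 0.0227) and Rab20 (0.37, adjusted p = 0.0265) passed. The other genes of the 10 smallest p, F830045P16Rik, Ccdc42, Gzmf, Olfr555, Oaz3, Aox4 and Grm3, differed by -0.13 to 0.085 and were detected on at most 1 array of either group.

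**Figure D5:**
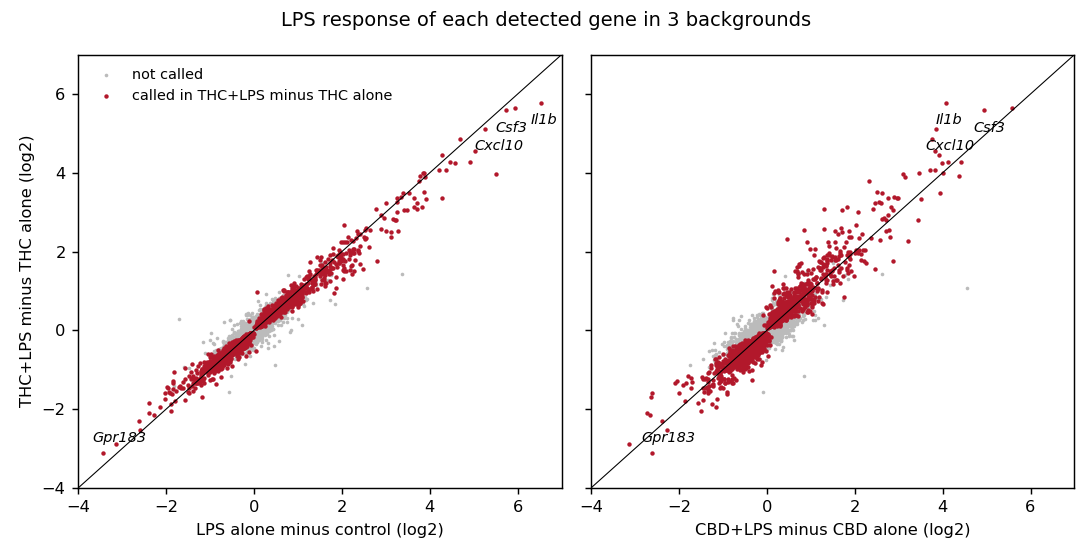
Log2 fold change of each gene detected on at least 4 arrays in THC+LPS minus THC (vertical axis) against LPS minus control (left) and CBD+LPS minus CBD (right), with the called genes in red and a line at equal values. Points lie along the line in both panels, with r = 0.964 on the left and 0.907 on the right.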

How the data were processed

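BV-2 cells had been profiled by the authors on 24 Illumina MouseRef-8 arrays, and groups were taken from the treatment labels (4 THC+LPS, 4 THC, 6 LPS, 6 Cntr, 2 CBD+LPS, 2 CBD). For replicates per treatment, the study's text differs from the labels. The intensity the authors deposited is an unnormalized mean bead signal per probe. A deposited detection p-value sets it against negative control beads. The deposited log2 values of the authors equal the quantile-normalized log2 signals, within 5e-09. Scanner software is not given in the sources used here.

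Normalized log2 values were computed with neqc of limma 3.58.1 in R 4.3.3 (background from the detection p-values, offset 16, quantile normalization). One linear model with 6 group means was fitted over the 24 arrays, and moderated tests of limma with Benjamini-Hochberg adjustment over 24611 probes gave each comparison and difference of responses. All p-values in the text come from these tests. Genes were named from the platform annotation, with 15161 genes having a probe of their own. Where no array of a group was detected (detection p under 0.05) the fold is a bound. Median array signals of 109 to 157 and detection of 40.6 to 44.8% of probes set the depth.

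Named were the 15 largest rises and falls without overlap, up to 4 called genes per list, the 10 smallest p of each difference and genes the study discusses. Other genes were chosen after their values were seen. Of the probes called for the difference between THC and CBD, 1 is not reported here. Members and gene lists were chosen with earlier results of these data known. On simulated data for THC+LPS against THC, run on 24611 probes, 32%, 62%, 90% and 100% of 50 probes each changed by 1.3, 1.5, 2 and 4-fold were recovered, with 11 false calls. The simulated noise was normal and independent between probes, and the changed probes were drawn from those detected on all arrays. In the data, arrays shared a residual component and THC replicate 1 stood apart. The simulated rates thus check the model and need not hold for the real comparison. Alternatives covered background, offset, scaling, filter, prior, groups fitted, weights, block, threshold, probe and each array left out.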

Additional observations from a re-analysis of the deposited data

Results flagged for a closer look

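Of 280 sets of 4 arrays of 1 group tested over the genes named above, 34 held an array whose gap to its nearest neighbour exceeded Dixon's 95% limit for 4 samples, where chance gives about 1 in 20. In 19 of these the array was THC replicate 1. Genes highest on it had a gap over range of 0.923 for Il1b, 0.902 for Cxcl2, 0.935 for Cd40, 0.884 for Traf1, 0.879 for Cxcl16, 0.8997 for Fas, 0.951 for Irak3, 0.883 for Tlr2, 0.953 for Ikbke, 0.951 for Socs3, 0.927 for Map3k8, 0.931 for Saa3, 0.967 for Fpr2, 0.908 for Nod2 and 0.927 for Slc11a2. Genes lowest on it were at 0.929 for Gpr183, 0.855 for Klhl6, 0.936 for Cxcr4 and 0.875 for Lrrc14b. For Saa3 this array was at 15.05 and the next THC array at 9.90, and for Irak3 at 11.46 and 8.61. What set this array apart was not tested.

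THC+LPS replicate 4 lay apart from the other THC+LPS arrays at 0.868 for Cytip (highest), 0.855 for E2f2 (highest), 0.854 for Lrrc14b (highest), 0.876 for Olfr437 (lowest) and 0.868 for Hmox1 (lowest). Hmox1 was at 14.05 on it, against 14.89 or more on the others. THC+LPS replicate 2 lay apart at 0.921 for Cnr2 (highest), 0.834 for Nr1d1 (highest), 0.867 for Cdkn2b (highest), 0.933 for Herpud1 (lowest) and 0.838 for Ccdc42 (highest). Single values were 0.846 for Oaz3 (lowest) on THC+LPS replicate 1 and 0.895 for Nupr1 (lowest) on THC replicate 3, and on THC replicate 2 they were 0.886 for Nfkbie (lowest), 0.869 for Nfe2l2 (lowest) and 0.842 for Olfr555 (highest). Lrrc14b had an array apart in both groups. Olfr437, Ccdc42 and Oaz3 were not detected on any THC+LPS array.

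The LPS response differed between THC and CBD by the test of the difference itself for Pi16 (0.226, SE 0.0322, adjusted p = 0.0136). It was detected on 2 of 24 arrays, so its signal was mostly under the detection limit. Its call was lost with no background correction or the deposited log2 values (0.75, adjusted p = 0.953), median scaling (0.16, adjusted p = 1.00), only the groups compared (0.23, adjusted p = 1.00), array weights (0.22, adjusted p = 0.0621), the replicate block (0.23, adjusted p = 0.0826), runs of 8 columns (0.22, adjusted p = 0.0518), scaling to detected probes (0.35, adjusted p = 0.888) and without CBD replicate 1 (0.19, adjusted p = 0.122).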

How the results depend on the processing

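The counts of 860 probes higher and 1074 lower stayed within 1.5 times with no background correction, an offset of 50, the deposited log2 values, detected probes only, an intensity trend with a robust prior, only the 8 arrays in the fit, array quality weights, runs of 8 columns of the deposited table as a term and the first residual component as a covariate, and ranged from 656 to 816 higher and 790 to 1069 lower without each single array. Median scaling gave 793 higher and 84 lower, and scaling to the median of the detected probes 435 and 399, so rises were 44.5% of the calls by quantile normalization, 90.4% by median scaling and 52.2% by the other. The median change of detected genes was -0.031, 0.18 and -0.21 under these, and directions of small changes are relative to it. The first 8 columns alone gave 273 and 247, with fewer samples, and a 2-fold minimum 296 and 103. Those columns hold replicates 1 and 2 of both groups. THC replicates 3 and 4 lie in run 2 and THC+LPS replicates 3 and 4 in run 3, so on these arrays LPS and run change together. The labels do not say what the runs are. Scaling to detected probes, the runs and first 8 columns and the residual component were chosen after seeing the data.

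The difference from the response without a cannabinoid stayed at 0 calls under the alternatives run for it at an adjusted p (the first 8 columns were not), including each array left out (0 to 0), and was 56 probes at an unadjusted p of 0.005 or less. The difference from the response with CBD, 2 probes, was 0 with no background correction, median scaling, the deposited log2 values, scaling to detected probes, array weights or only the 4 groups compared, 1 with detected probes only, the intensity trend and robust prior, the replicate block or runs of 8 columns, 74 at an unadjusted p of 0.005 or less, and 0 to 47 without each array, with each such array named above.

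The replicate numbers were not used as pairs in the main fit, and the deviations of same-numbered THC+LPS and THC arrays correlated at -0.560 to -0.0132. These values cannot tell whether same-numbered arrays share a culture or preparation. With the replicate block 810 probes were higher and 1017 lower.

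Of 118 named genes called, 58 kept their call under all 21 alternatives, and 57 lost it in the first 8 columns alone. Reversed values were those of Trib3, at -0.0072 with no background correction or the deposited log2 values, -0.23 with scaling to detected probes and -0.055 to 0.12 without each array, of Ndufs7 (0.086), Ndufs8 (0.14), Mcm4 (0.046) and Mcm5 (0.051) with median scaling, and of Tnfrsf1b (-0.13) with scaling to detected probes. Under that scaling the differences of Cyp4f39 (-0.51) and Trim68 (-0.49) from cells without a cannabinoid and of F830045P16Rik (0.090), Gzmf (0.13) and Olfr555 (0.068) from cells with CBD also turned, most of them genes under the detection limit. Other probes read 0.0054 for Gcnt1, -0.0033 for Ptgs2, 0.021 for Tgfbr2 and -0.025 for Nfe2l2, and did not pass for Cd40 (0.062), E2f2 (-0.015), Fas (0.0048) and Mmp13 (1.17). Nor did they pass for Tnfrsf1b (0.031), Maff (0.019), Jak2 (0.011), Daglb (-0.077), P2ry2 (0.012), Rxrb (-0.37), Nr1d1 (-0.042), Cdc6 (-0.011) and Tk1 (-0.85 and -0.048). The cause of these changes was not tested. Signal near background limits low genes, whose fold changes are bounds or understated.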

Other observations

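Psmc1, which encodes an ATPase of the proteasome cap, was at 10.78 and 10.33 on THC+LPS replicates 1 and 2 and at 7.79 and 7.65 on replicates 3 and 4, against 10.54 to 10.92 on the 4 THC arrays (adjusted p = 0.477). It was detected on 8 of 8 arrays in each of the first 2 runs of 8 columns of the deposited table and on 3 of 8 in the last run, which holds THC+LPS replicates 3 and 4. This gene was picked after its values were seen.

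Fcgr4, an activating Fc receptor gene, had 10.88, 12.64, 10.85 and 13.11 in THC+LPS arrays, against 11.68, 8.78, 11.72 and 9.17 in THC arrays, and Apoe, a lipid carrier gene, had 8.69, 11.77, 9.33 and 10.48 in THC+LPS arrays, against 10.89, 8.77, 10.59 and 9.83 in THC arrays. Chac1, a glutathione-degrading gene of the stress response, ran the other way within THC+LPS, with 11.02, 8.57, 10.65 and 8.79 in THC+LPS arrays, against 9.26, 10.62, 8.61 and 10.18 in THC arrays. None of the 3 genes passed the test between groups (adjusted p = 0.371, 0.990 and 0.973).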
